A study of Mus musculus with 8 samples.

Results

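Neutrophils of the mouse liver were picked out of single-cell RNA-seq libraries by their transcripts, and their number, their marker genes and their expression were compared between control mice and 2 models of nonalcoholic steatohepatitis (NASH) with fibrosis. Barcodes with more than 500 genes and under 25% of their unique molecular identifiers (UMIs, each marking 1 captured mRNA molecule) from mitochondrial genes were kept. A kept barcode was taken as a neutrophil if it held at least 20 UMIs of S100a8 and S100a9 together, at least 3 UMIs of Csf3r, Cxcr2 and Retnlg together, and 0 UMIs of Csf1r, Cd3e and Cd79a, which mark monocytes and macrophages, T cells and B cells. This rule found 2499 neutrophils among 80474 kept barcodes, or 3.11%.

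The libraries came from the livers of 8 wild-type (WT) C57BL/6 mice, 1 library per mouse. The 2 control mice had normal diet and drinking water. The 3 HFD+F+CCl4 mice were fed a high-fat diet, and the 3 WD+F+CCl4 mice a western diet richer in cholesterol. Both NASH groups also drank a solution of fructose and glucose and were injected intraperitoneally with carbon tetrachloride (CCl4, a liver toxin) each week, so the parts of diet, sugar and toxin cannot be told apart here. The sources used here state no age for the mice. Livers were taken after perfusion through the heart and dissociated with enzymes, and red and dead cells were removed before cells were loaded. Neutrophils left in the vessels and those within the tissue cannot be told apart.

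Neutrophils are short-lived granulocytes that are made in the bone marrow under granulocyte colony-stimulating factor, whose receptor is Csf3r, and that leave it for the blood and for inflamed tissue along gradients of CXC chemokines, which the receptor Cxcr2 senses. During maturation they fill their granules in order, with myeloperoxidase and elastase first, lactoferrin and cathelicidin next and gelatinase last, and the transcripts of these proteins are made while the cell is in the marrow and are mostly lost afterwards. In the cytosol they carry large amounts of calprotectin, the dimer of S100a8 and S100a9. In steatohepatitis neutrophils gather around injured hepatocytes.

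The neutrophils held fewer UMIs than the other cells in 7 of the 8 libraries. The library totals were 36699315 and 6135827 UMIs in control replicates 1 and 2, and between 46275590 and 64855024 in the 6 NASH mice. The median neutrophil held between 1207 and 1598 UMIs and between 668 and 764 genes per mouse, against medians of 2423 to 4449 UMIs in all other kept cells of 7 mice and 992 in control replicate 2, where neutrophils were the larger cells. Control replicate 2 stood apart, with the smallest library, only 11 neutrophils and 13579 neutrophil UMIs in all, so that 1 UMI in it was worth 73.6 CPM (UMIs scaled to a neutrophil total of 1e6). In control replicate 1, with 163 neutrophils and 282115 neutrophil UMIs, 1 UMI was worth 3.54 CPM, and in the NASH mice between 0.498 and 2.78 CPM. Of the kept barcode sequences 732 occurred in 2 or more libraries, and 42 neutrophils, or 1.68%, shared their barcode sequence with a kept cell of another mouse. In 2 such cases both cells were neutrophils.

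Mitochondrial and ribosomal protein genes apart, the calprotectin genes, which chose the cells, were the most abundant. Their medians over the mice were 71846 CPM for S100a9 and 58860.3 CPM for S100a8, ahead of Malat1, Tmsb4x, Actb and Fth1. These values set the membership and are given as a description. S100a8 and S100a9 together made 10.5% and 6.86% of neutrophil UMIs in the control mice, 10.1%, 11.3% and 17.6% in the HFD+F+CCl4 mice and 17.4%, 27.9% and 14.8% across the WD+F+CCl4 mice. The median cell held 54 to 298 calprotectin UMIs in the neutrophils of the 8 mice, 0 to 2 in monocytes (Ly6c2 and Csf1r present) and 0 in T and B cells. Some monocytes nevertheless reached the 20 UMIs of the rule, 591 of 2868 (20.6%) in WD+F+CCl4 replicate 1 and 0 to 8.89% in the other mice.

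The remaining rule markers varied as follows. Retnlg, which encodes a secreted protein of the resistin family, had 3530.5 and 5449.6 CPM in the control mice, 5338, 2887 and 4106 in the HFD+F+CCl4 mice and 6025, 10311 and 3774 across the WD+F+CCl4 mice. Csf3r had 2963 and 2798 CPM in the control mice, 2730.1, 2165 and 1516 in the HFD+F+CCl4 mice and 2603, 1838 and 2027 across the WD+F+CCl4 mice. For Cxcr2 the values were 1244 and 1620.2 CPM in the control mice, 879, 1086 and 757 in the HFD+F+CCl4 mice and 1535, 1342 and 1115 across the WD+F+CCl4 mice. Each of the 3 was found in the neutrophils of every mouse, but the rule used them to choose the cells, so this is a description. Csf1r, Cd3e and Cd79a were at 0 because the rule required it. The study marked granulocytes by Itgam, which encodes the integrin CD11b, and Ly6g, a surface marker of mouse neutrophils. Itgam had 333 and 73.6 CPM in the control mice, 356, 366 and 382 in the HFD+F+CCl4 mice and 487, 451 and 397 across the WD+F+CCl4 mice. Ly6g, which is low in this kind of library, had 31.9 and 73.6 CPM in the control mice, 106, 196 and 271 in the HFD+F+CCl4 mice and 194, 389 and 174 across the WD+F+CCl4 mice. The rule did not use either gene, and both had UMIs in the neutrophils of all 8 mice, 1 UMI each in control replicate 2.

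Genes that the rule did not use set neutrophils apart from other liver cells in each mouse. Ranked by the smallest ratio over the 8 mice of the level in neutrophils to that in all other kept cells, the leading genes outside the rule included Gm5483 (32.2 to 191 times) and Stfa2l1 (27.2 to 159.8 times), both of the stefin A family, whose near-identical members can share reads. Lower in the same order came Chil1, a chitinase-like protein (22.02 to 90.7 times), Hdc, the histidine decarboxylase that makes histamine (18.2 to 55.4 times), Mxd1, a transcriptional partner of Max (17.9 to 41.1 times), and Mmp9, gelatinase B (15.4 to 82.8 times). Mmp8, the neutrophil collagenase, was 12.3 to 129.9 times as high, Lcn2, the iron-withholding protein lipocalin 2, 10.9 to 46.5 times, and Il1b, the cytokine interleukin 1β, 9.04 to 68.1 times. The cells were chosen by their transcripts, so these ratios describe them and were not tested.

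Cells at the edges of the rule show what it took and what it left. With the other conditions met, 68 members had 20 to 24 calprotectin UMIs and 92 cells outside had 15 to 19. At the receptor threshold, 168 members had 3 UMIs of Csf3r, Cxcr2 and Retnlg and 185 cells outside had 2. Of the conditions on Csf1r, Cd3e and Cd79a, that on Csf1r left out the most barcodes. Another 2204 barcodes met every other condition but held at least 1 Csf1r UMI, 897 of them in WD+F+CCl4 replicate 1, and these were larger cells, with a median of 4025 UMIs against 1445 in the members. Cd3e and Cd79a left out 142 and 133 barcodes that met the other conditions. Below the limit on genes, 251 barcodes with over 200 and up to 500 genes met the remaining conditions.

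Neutrophils made a larger share of the liver cells in each NASH mouse than in either control mouse, although the difference in means did not pass the test. They were 1.51% of the kept cells in control replicate 1 (163 of 10788, exact 95% interval 1.29 to 1.76) and 0.264% in control replicate 2 (11 of 4168, 0.132 to 0.472). The HFD+F+CCl4 mice had 2.16%, 2.76% and 2.61%, from 242, 279 and 278 neutrophils. The WD+F+CCl4 mice had 8.22%, 3.08% and 2.02%, from 986, 303 and 237 neutrophils. WD+F+CCl4 replicate 1 alone held 986 of the 2499 neutrophils and was far above the other WD+F+CCl4 mice. The HFD+F+CCl4 mice lay close together.

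**Figure D1:**
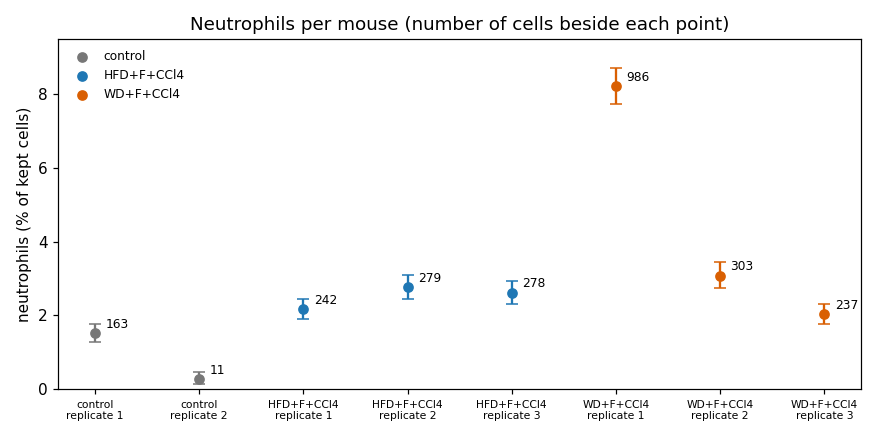
Share of neutrophils among the kept cells of each mouse, in percent on the vertical axis, with 1 point per mouse, its exact 95% binomial interval as a bar and the number of neutrophils beside it. The 6 NASH mice lay between 2.02% and 8.22% and the control mice at 1.51% and 0.264%.

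The mean share was 3.47% ± 2.36 (SD, n = 6) in NASH mice and 0.887% ± 0.882 (SD, n = 2) in control mice, a difference of 2.59 percentage points (exact two-sided permutation test over mice, p = 0.25, adjusted p over 4 comparisons 0.333). HFD+F+CCl4 mice, at 2.51% ± 0.308 (SD, n = 3), were 1.62 points above control (exact permutation p = 0.1, adjusted p 0.333). WD+F+CCl4 mice, at 4.44% ± 3.31 (SD, n = 3), were 3.55 points above control (exact permutation p = 0.2, adjusted p 0.333) and 1.93 points above HFD+F+CCl4 (exact permutation p = 0.5, adjusted p 0.5). With these group sizes the smallest p was 0.0357 for all NASH mice and 0.1 for each other comparison. Without WD+F+CCl4 replicate 1 the NASH mice were 1.64 points above control (exact permutation p = 0.0476, adjusted p 0.19), and WD+F+CCl4 was 1.66 points above control (exact permutation p = 0.333) and 0.04 points above HFD+F+CCl4 (exact permutation p = 1).

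The share depended on which mixed or large barcodes counted as neutrophils. When the conditions on Csf1r, Cd3e and Cd79a were dropped, the difference between NASH and control mice was 5.36 points. When only barcodes with over 1000 genes were kept, as cells and as neutrophils, it was 0.299 points, since 2140 of the 2499 neutrophils had 1000 genes or fewer, and 4 of the 6 NASH mice were above both controls. When neutrophils with a UMI of Cd3d, Cd3g, Cd79b, Ms4a1, C1qa, C1qb, C1qc, Clec4f, Siglech or Ncr1, which mark other blood and liver cells, were left out, 1573 remained and the difference was 1.51 points. HFD+F+CCl4 replicate 1, in which C1q transcripts of macrophages were found in 83.5% of neutrophils without thinning, was then at 0.349%, below the 1.17% of control replicate 1, and 3 of 6 NASH mice were above both controls.

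Transcripts of 3 granule proteins were abundant in neutrophils of 5 NASH mice and had 1 UMI in those of the control mice. Ltf encodes lactoferrin, which binds iron, Camp the cathelicidin precursor, an antimicrobial peptide, and Ngp the neutrophilic granule protein, and all 3 belong to the secondary granules. The genes lie within 1195 kb of chromosome 9 in GRCm38, Camp at chr9:109847379-109849617, Ngp at chr9:110419747-110423012 and Ltf at chr9:111019271-111042767. Together they gave 0 and 1 UMIs in the neutrophils of the control mice, 6, 3592 and 13029 in the HFD+F+CCl4 mice and 15542, 10523 and 3317 across the WD+F+CCl4 mice. Both controls and HFD+F+CCl4 replicate 1 were thus at or near 0, and the other 5 NASH mice were all above 3000.

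The stretches just before the gene starts of these and of 2 further granulocyte genes, Cd177 and S100a9, are shown. Ltf, Camp and Ngp set the class of cells rich in their transcripts that is described below. S100a9 was used to choose the neutrophils, and Cd177 was higher in that class. All 5 were chosen after the values were seen. They are RefSeq promoter windows of GRCm38.p6, cut at the GENCODE gene start and written 5′ to 3′ on the strand of the gene. Capitals mark matches, on either strand, to TTGCNNAA, the letters bound by C/EBP factors, which drive granulocyte maturation, or to GAGGAA, the letters bound by the myeloid factor PU.1. The regions are chr9:109849618-109849706 (minus strand) for Camp, chr9:110419558-110419746 (plus strand) for Ngp, chr9:111019042-111019270 (plus strand) for Ltf, chr7:24760312-24760561 (minus strand) for Cd177, the neutrophil surface protein, and chr3:90695722-90695971 (minus strand) for S100a9.
Camp: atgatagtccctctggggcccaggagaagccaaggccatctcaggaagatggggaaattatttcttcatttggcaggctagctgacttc
Ngp: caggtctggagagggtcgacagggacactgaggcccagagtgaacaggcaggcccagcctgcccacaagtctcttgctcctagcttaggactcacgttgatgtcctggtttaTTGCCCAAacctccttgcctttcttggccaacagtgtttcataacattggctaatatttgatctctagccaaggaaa
Ltf: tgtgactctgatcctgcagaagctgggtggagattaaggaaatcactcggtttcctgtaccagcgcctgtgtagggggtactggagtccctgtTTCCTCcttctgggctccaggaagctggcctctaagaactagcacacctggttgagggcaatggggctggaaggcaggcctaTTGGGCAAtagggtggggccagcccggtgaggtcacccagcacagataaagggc
Cd177: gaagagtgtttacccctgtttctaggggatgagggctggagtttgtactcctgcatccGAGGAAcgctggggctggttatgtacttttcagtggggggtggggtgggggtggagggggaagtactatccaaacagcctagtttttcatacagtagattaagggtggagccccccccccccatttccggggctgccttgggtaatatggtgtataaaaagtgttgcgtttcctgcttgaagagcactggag
S100a9: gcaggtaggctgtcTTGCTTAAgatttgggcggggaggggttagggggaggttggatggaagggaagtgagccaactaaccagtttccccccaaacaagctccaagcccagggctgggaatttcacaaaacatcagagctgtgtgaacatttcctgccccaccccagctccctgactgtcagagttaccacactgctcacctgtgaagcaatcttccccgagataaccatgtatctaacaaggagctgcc

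In windows of 250 bases before the start, TTGCNNAA occurred in 9.56% of 32851 promoters and GAGGAA in 23.3%. The window of Ngp held 2 matches to TTGCNNAA, 1 of which lies in the printed stretch, that of Ltf 1 match to each, that of S100a9 1 to TTGCNNAA and that of Cd177 1 to GAGGAA. Neither was found in the window of Camp. A match is a description of letters and not of a bound site.

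Granule transcripts were held by few neutrophils and in large amounts. In the 8 mice 2249 neutrophils had no UMI of Ltf, Camp and Ngp, 142 had 1 to 9 and 108 had 10 or more, and these 108 held 99.6% of all such UMIs, with a median of 278 per cell. The limit of 10 was chosen after the values were seen, and only 3 cells had 5 to 9 and 3 had 10 to 14. All 108 cells came from NASH mice (108 of 2325 neutrophils), with 0 in HFD+F+CCl4 replicate 1 and 8, 16, 38, 36 and 10 in the other 5, or 2.87%, 5.76%, 3.85%, 11.9% and 4.22% of their neutrophils. Of the 108, 100 held all 3 transcripts.

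**Figure D2:**
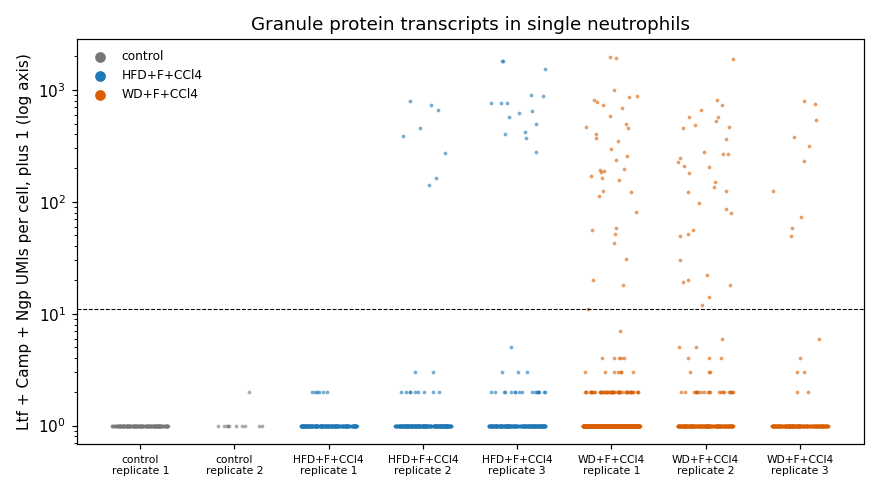
UMIs of Ltf, Camp and Ngp together in each neutrophil, plus 1, on a log axis, with 1 point per cell, by mouse. The dashed line marks 10 UMIs, above or on which lie 108 cells of 5 NASH mice and no cell of the control mice or of HFD+F+CCl4 replicate 1.

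Counting error limits the comparison with the smaller libraries. With 0 of 163 such cells, control replicate 1 could hold up to 1.84%, and HFD+F+CCl4 replicate 1, with 0 of 242, up to 1.24%, since a count of 0 allows 3. For control replicate 2, with 11 neutrophils, the limit was 27.3%. At an equal depth of 800 UMIs per cell, any of the 3 transcripts was found in 0% and 0% of neutrophils in the control mice, 1.66%, 5.42% and 8.66% in the HFD+F+CCl4 mice and 7.14%, 17.2% and 6.36% across the WD+F+CCl4 mice, against 0.305 to 1.22% over the mice in T and B cells thinned alike, which do not make them. Ltf, Camp or Ngp in unthinned cells ranged over the mice from 0 to 21.8% of neutrophils and from 0.427 to 5.01% of T and B cells. Unthinned monocytes had them in 0.760% and 0% of cells in the control mice. In the HFD+F+CCl4 mice it was 2.24%, 2.53% and 10.3% of monocytes, against 2.48%, 6.81% and 13.3% of neutrophils. Across the WD+F+CCl4 mice it was 8.68%, 4.61% and 4.40% of monocytes, against 10.6%, 21.8% and 6.75% of neutrophils. Another 67 barcodes left out for a Csf1r UMI also had 10 or more granule UMIs. In all other kept cells the 3 transcripts together had 41.9 and 14.9 CPM in the control mice. They had 9.32, 99.8 and 397 CPM in the HFD+F+CCl4 mice and 529, 199 and 160 across the WD+F+CCl4 mice. Control livers thus held these transcripts outside the cells taken as neutrophils, and which cells held them was not tested.

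In the summed counts of each mouse, the same genes did not pass the test. The adjusted p of edgeR's quasi-likelihood test for WD+F+CCl4 against control was 0.0820 for Ngp, 0.130 for Camp and 0.139 for Ltf, and for HFD+F+CCl4 against control it was 0.154, 0.184 and 0.219. Ltf had 0 and 73.6 CPM in the control mice, 2.78, 1762 and 3455 in the HFD+F+CCl4 mice and 1142, 3320.1 and 1440.4 across the WD+F+CCl4 mice. Camp was at 0 and 0 CPM in the control mice, 0, 2374 and 8159.8 in the HFD+F+CCl4 mice and 3041, 4512 and 3137 across the WD+F+CCl4 mice. Ngp was at 0 and 0 CPM in the control mice, 13.9, 2568 and 8474 in the HFD+F+CCl4 mice and 3558, 8085 and 3306 across the WD+F+CCl4 mice. The one Ltf UMI of control replicate 2 makes its 73.6 CPM.

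Lcn2, another secondary granule protein, was present in neutrophils of all mice, with 489 and 663 CPM in the control mice, 1498, 2006 and 5256 in the HFD+F+CCl4 mice and 3516, 5908 and 2607 across the WD+F+CCl4 mice. Each NASH mouse was above both controls, as in 17.2% of 6320 genes for HFD+F+CCl4 and 14.8% for WD+F+CCl4, with 16.7% and 21% the other way and 1.63% and 7.12% for WD+F+CCl4 above or below HFD+F+CCl4. The adjusted p of edgeR's test was 0.0584 for WD+F+CCl4, above the threshold of 0.05, and 0.173 for HFD+F+CCl4. At 800 UMIs per cell, Lcn2 was found in 21.6% and 45.5% of neutrophils in the control mice, 39.0%, 25.3% and 46.6% in the HFD+F+CCl4 mice and 42.8%, 60.3% and 40.3% across the WD+F+CCl4 mice, against 0.131 to 1.93% of T and B cells. By this measure control replicate 1 was below all 6 NASH mice, and control replicate 2, with 5 of 11 cells, lay among them. Lcn2 in unthinned cells ranged over the mice from 33.1 to 68.0% of neutrophils and from 0.544 to 4.499% of T and B cells. In HFD+F+CCl4 replicate 2, 5 cells held 59.9% of the Lcn2 UMIs, and neutrophils without transcripts of Ltf, Camp and Ngp had 575 CPM there, below control replicate 2. Without the cells of 10 or more such UMIs, the log2 fold change of Lcn2 was 2.31 in place of 3.52 in WD+F+CCl4 (edgeR adjusted p 0.117) and 1.51 in place of 2.89 in HFD+F+CCl4 (edgeR adjusted p 0.344). Of the 14 listed genes of secondary and tertiary granules, 0 passed in either comparison with control, and the median log2 fold change was 1.66 in HFD+F+CCl4 and 2.49 in WD+F+CCl4, against 0.14 and 0.15 over all genes tested.

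Primary granule transcripts, which mark earlier precursors, were scarce. The 6 listed genes summed to 3.54 and 0 CPM in the control mice, 30.6, 28.0 and 57.1 in the HFD+F+CCl4 mice and 294, 101 and 49.9 across the WD+F+CCl4 mice, and in monocytes of the same mice the sum reached 879 CPM. In WD+F+CCl4 replicate 1 the 146 UMIs of Elane, the neutrophil elastase, came from 11 cells, and 92.5% of them from 1 barcode. At 800 UMIs per cell, Elane, Mpo or Prtn3 were found in 0 to 2.55% of neutrophils per mouse, against 0 to 1.72% in T and B cells. Elane, Mpo or Prtn3 in unthinned cells ranged over the mice from 0 to 4.68% of neutrophils and from 0.0435 to 3.81% of T and B cells.

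The granule-transcript-high neutrophils of the 5 mice differed from the neutrophils without these transcripts in many further genes. They were larger, with medians of 4377 to 8260.5 UMIs per mouse against 1312 to 1484, and 78 of the 108 had over 1000 genes. The class was set after the values were seen, so the following levels are a description, mouse by mouse, with no test. Lcn2 had 11480.2 to 17950.5 CPM in the granule-transcript-high neutrophils and 575 to 2320.2 in those without. Cd177 had 1309 to 1402 CPM in the granule-transcript-high neutrophils and 14.04 to 75.8 in those without. Both therefore separated the classes without overlap. Chil3, a chitinase-like protein of myeloid precursors, had 3369 to 6029 CPM in the granule-transcript-high neutrophils and 20.5 to 558 in those without. Cebpe, the transcription factor required for secondary granules, had 218 to 493 CPM in the granule-transcript-high neutrophils and 8.42 to 35.1 in those without. In each of the 5 mice these 4 genes were higher in the granule-transcript-high cells, by 5.74 to 19.96 times for Lcn2 and 18.5 to 99.4 times for Cd177.

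Genes of other neutrophil functions went with them. Mmp8 had 1232 to 4547 CPM in the granule-transcript-high neutrophils and 184 to 909.9 in those without. Cybb, the catalytic subunit of the NADPH oxidase, had 1283 to 1957 CPM in the granule-transcript-high neutrophils and 107 to 308 in those without. These proteins degrade collagen and make superoxide. Anxa1, the annexin of gelatinase granules, had 2003 to 2436 CPM in the granule-transcript-high neutrophils and 210.1 to 427 in those without. Ifitm6, an interferon-inducible membrane protein of myeloid cells, had 2678 to 3522 CPM in the granule-transcript-high neutrophils and 114 to 428 in those without. All 4 were higher in the granule-transcript-high cells of each of the 5 mice. Several listed interferon-stimulated genes ran against Ifitm6. Ifitm1 had 0 to 411 CPM in the granule-transcript-high neutrophils and 2016 to 4789.6 in those without. Ifitm1, Oasl2, Rsad2, Rtp4 and Slfn1, each with at least 100 CPM in the neutrophils without granule transcripts of every mouse, were lower in the granule-transcript-high cells of all 5 mice, also with the most abundant granule and calprotectin UMIs taken out of the totals as described below. Slfn4 was lower in 5 of 5 mice by CPM and in 4 of 5 on that second scale. Ifitm3 was higher in 1 of 5 mice by CPM and in 5 of 5 on the second scale. The proliferation genes Mki67 and Top2a were low but also higher in each mouse, with 82.8 to 216 CPM in the granule-transcript-high neutrophils and 2.53 to 117 in those without for Mki67 and 112 to 409 CPM in the granule-transcript-high neutrophils and 7.58 to 151 in those without for Top2a. Of the 12 listed cell cycle genes, 3 were higher in all 5 mice by CPM, these 2 and H2afz, another 5 in 4 of 5, and the remaining 4 in 1 to 3.

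Il1b and Cxcl2 ran the other way. Il1b had 0 to 335 CPM in the granule-transcript-high neutrophils and 1212 to 2986 in those without. Cxcl2, a chemokine that draws neutrophils, had 0 to 301 CPM in the granule-transcript-high neutrophils and 289.7 to 2663 in those without. Both were lower in the granule-transcript-high cells of all 5 mice. Cebpb, a factor of mature and emergency granulopoiesis, was also lower, with 55.8 to 308 CPM in the granule-transcript-high neutrophils and 894 to 1814 in those without. Not all receptors were lower. Fpr2, a formyl peptide receptor, had 575 to 781 CPM in the granule-transcript-high neutrophils and 274 to 502 in those without, and Ltb4r1, the receptor of leukotriene B4, had 298 to 356 CPM in the granule-transcript-high neutrophils and 38.8 to 88.5 in those without, both higher in the granule-transcript-high cells of all 5 mice. The rule asked for the same UMIs of Csf3r, Cxcr2 and Retnlg in small and large cells, so these are not compared between the classes. Cxcr4, the receptor that holds neutrophils in the marrow, was lower in all 5, with 82.1 to 131 CPM in the granule-transcript-high neutrophils and 168 to 396 in those without.

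**Figure D3:**
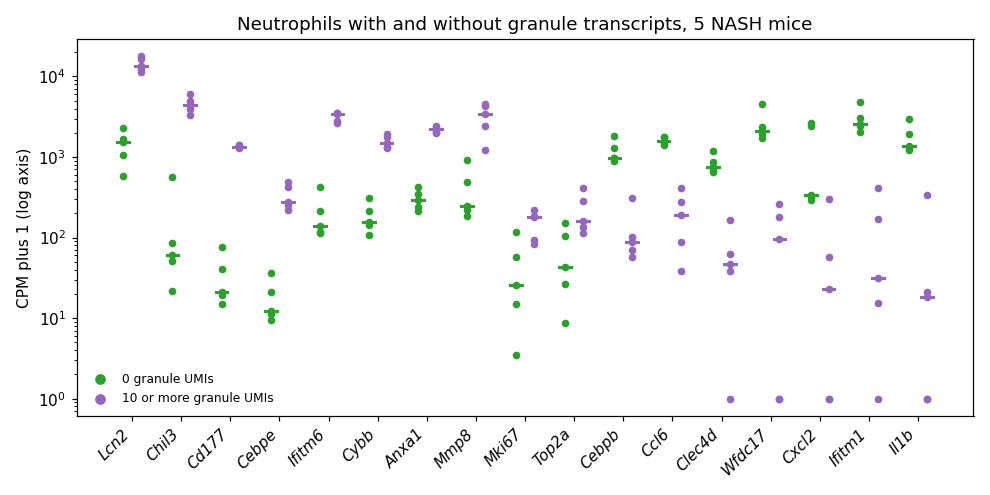
CPM plus 1, on a log axis, of 17 genes in neutrophils with 0 UMIs (green) and with 10 or more UMIs (purple) of Ltf, Camp and Ngp, 1 point per mouse for 5 NASH mice, with bars at the medians. The purple points lie above the green points for the genes from Lcn2 to Mmp8, and below them for Cebpb, Ccl6, Clec4d, Wfdc17, Ifitm1 and Il1b, while for Cxcl2 the highest purple point (301) reached past the lowest green one.

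A few genes took a large part of the UMIs in these cells, which lowers the CPM of all others. Ltf, Camp, Ngp, S100a8 and S100a9 made 39.9% to 50.1% of the UMIs in the granule-transcript-high cells and 7.79% to 19.3% in the others. Of 157 listed genes over 100 CPM in either class, 22 were higher and 100 lower in all 5 mice. With the UMIs of the 5 genes taken out of the totals, 38 of 167 were higher and 74 lower. Lcn2, Cd177, Cebpe, Cybb, Mmp8, Mki67 and Top2a were higher and Il1b and Cxcl2 lower in all 5 mice on this scale too, and Cxcr4 was lower in 4 of 5.

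Neutrophils of WD+F+CCl4 mice differed from those of control mice in 59 of 6320 genes (edgeR's quasi-likelihood test, adjusted p under 0.05), or 0.934% of the genes tested, 13 higher (0.206%) and 46 lower (0.728%). DESeq2 called 143. Leaving out WD+F+CCl4 replicate 2 lowered the count and leaving out WD+F+CCl4 replicate 3 raised it, as given in the last section. Levels are CPM of each mouse, and log2 fold changes were taken after scaling by the trimmed mean of M values (TMM). Relative to library size alone, this scaling moved the median of all genes by 0.37 in this comparison. The move was 0.21 in HFD+F+CCl4 against control and 0.18 in WD+F+CCl4 against HFD+F+CCl4. The ± of a log2 fold change is a standard error worked back from edgeR's test statistic, and not an SD over mice. All 59 calls were lost without control replicate 1, where 0 remained and the lone control was assumed to vary like the other groups. Without control replicate 2, the library of 11 neutrophils, 23 genes were called, 1 higher, Fkbp5, and 22 lower, and 22 of the 23 were among the 59.

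The genes that rose were of diverse kinds. Wfdc17, a secreted antiprotease-like protein of activated phagocytes, had 202 and 736 CPM in the control mice and 1499, 3199 and 2046 across the WD+F+CCl4 mice (log2 fold change 3.36 ± 0.63, adjusted p 0.0200 by edgeR). Lrg1, a secreted leucine-rich glycoprotein of neutrophil granules, had 195 and 295 CPM in the control mice and 939.8, 1279.6 and 882 across the WD+F+CCl4 mice (log2 fold change 2.77 ± 0.53, adjusted p 0.0231 by edgeR). Plin2, the coat protein of lipid droplets, had 60.3 and 147 CPM in the control mice and 311, 248 and 385 across the WD+F+CCl4 mice (log2 fold change 2.53 ± 0.46, adjusted p 0.0180 by edgeR). In all 3 the lowest WD+F+CCl4 mouse was above the higher control, as for 14.8% of the genes tested. The choice of Wfdc17 and Lrg1 as named genes required this. The HFD+F+CCl4 mice overlapped with the WD+F+CCl4 mice, with 2007, 1719 and 1579 CPM for Wfdc17, 998, 595 and 739 for Lrg1 and 350.3, 312 and 168 for Plin2.

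Ifit1 and Ifit1bl2 of the interferon-induced Ifit family rose. Ifit1, which binds viral RNA, had 17.7 and 0 CPM in the control mice and 216, 90.8 and 102 across the WD+F+CCl4 mice, the control value resting on 5 UMIs (log2 fold change 3.32 ± 0.68, adjusted p 0.0349 by edgeR). Ifit1bl2, a relative of Ifit1, had 3.54 and 0 CPM in the control mice and 62.3, 75.6 and 66.6 across the WD+F+CCl4 mice. It had 1 UMI in the control mice and 203 in the WD+F+CCl4 mice. With the UMIs of each group pooled and no TMM factor, this was 19.4 times (95% counting interval 3.45 to 771) the control level. The tested log2 fold change was 4.56 ± 0.80 (adjusted p 0.0140 by edgeR). In the HFD+F+CCl4 mice Ifit1 had 55.6, 33.6 and 57.1 CPM and Ifit1bl2 36.1, 50.4 and 49.3. For both genes these mice lay below the WD+F+CCl4 mice, as for 1.63% of the genes tested.

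Steap4, a metalloreductase, had 14.2 and 0 CPM in the control mice and 142, 378 and 199.7 across the WD+F+CCl4 mice, with 4 control UMIs (log2 fold change 4.53 ± 0.85, adjusted p 0.0208 by edgeR). Igfbp6, a binding protein of insulin-like growth factors, had 10.6 and 0 CPM in the control mice and 89.7, 178 and 188 across the WD+F+CCl4 mice (log2 fold change 4.20 ± 0.83, adjusted p 0.0294 by edgeR). With the UMIs of each group pooled and no TMM factor, it was 12.03 times (95% counting interval 4.08 to 58.6) the control level on 3 control UMIs. Fkbp5, a co-chaperone induced by glucocorticoids, had 24.8 and 147 CPM in the control mice and 192, 154 and 214 across the WD+F+CCl4 mice (log2 fold change 2.78 ± 0.48, adjusted p 0.0115 by edgeR). For each of these genes the highest control was below the lowest WD+F+CCl4 mouse, as their choice as named genes required. Of all genes tested, 14.8% had this order. In the HFD+F+CCl4 mice Steap4 had 164, 179 and 100 CPM, Igfbp6 189, 175 and 75.6, and Fkbp5 161, 159 and 130. For each of these genes the HFD+F+CCl4 mice overlapped with the WD+F+CCl4 mice.

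Basp1, a membrane-bound signaling protein, had 63.8 and 0 CPM in the control mice and 230.1, 381 and 404 across the WD+F+CCl4 mice (log2 fold change 2.92 ± 0.59, adjusted p 0.0323 by edgeR). Osgin1, which is induced by oxidative stress, had 85.1 and 0 CPM in the control mice and 375, 312 and 368 across the WD+F+CCl4 mice (log2 fold change 2.56 ± 0.52, adjusted p 0.0323 by edgeR). Crispld2, a secreted protein that binds lipopolysaccharide, had 28.4 and 0 CPM in the control mice and 154, 162 and 107 across the WD+F+CCl4 mice (log2 fold change 2.75 ± 0.57, adjusted p 0.0355 by edgeR). Control replicate 2 had 0 UMIs of all 3, and control replicate 1 had 18, 24 and 8. In the HFD+F+CCl4 mice Basp1 had 284, 429 and 352 CPM and Osgin1 475, 379 and 256, overlapping with the WD+F+CCl4 mice. Crispld2 had 69.5, 52.3 and 64.8 CPM there, below the WD+F+CCl4 mice, as for 1.63% of the genes tested. The remaining 2 genes that rose were Gm10076 and Gm46224, predicted genes of no assigned function.

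**Figure D4:**
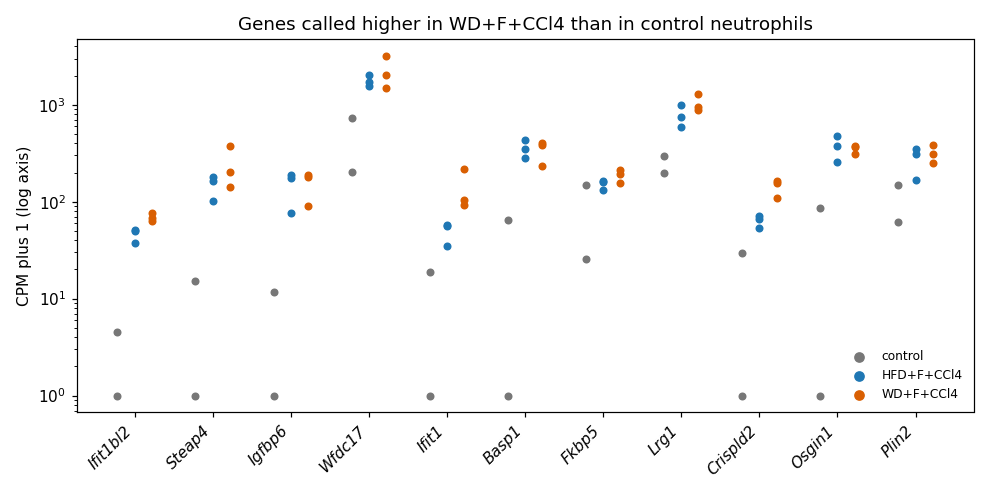
CPM plus 1, on a log axis, of the 11 named genes that rose in neutrophils of WD+F+CCl4 mice against control, 1 point per mouse, in gray for control, blue for HFD+F+CCl4 and orange for WD+F+CCl4. The 3 WD+F+CCl4 points of each gene lie above both control points, one of which is at 0 CPM (1 on the axis) for 7 of the 11 genes.

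The listed genes that fell were mostly hepatocyte genes. Of the 11 listed hepatocyte genes 8 fell in WD+F+CCl4 against control and 0 rose, with a median log2 fold change of -4.07. Over all genes tested 0.728% fell and 0.206% rose, with a median of 0.15. Alb, which encodes albumin, had 2102 and 810.1 CPM in the control mice and 64.7, 27.2 and 124 across the WD+F+CCl4 mice (log2 fold change -4.09 ± 0.78, adjusted p 0.0231 by edgeR). Mup3, of the major urinary proteins, had 712 and 295 CPM in the control mice and 11.95, 4.54 and 4.75 across the WD+F+CCl4 mice (log2 fold change -5.72 ± 0.59, adjusted p 0.000781 by edgeR). For both, each WD+F+CCl4 mouse was below both controls, as for 21% of the genes tested. The choice of Mup3 as a named gene required this. Among named genes Serpina1e, Apob, Serpina1c, Fgg, Serpina3k and Vtn also fell, all of which encode plasma proteins made by hepatocytes, with log2 fold changes from -6.11 to -4.82. The Mup and Serpina1 families hold near-identical copies, so the share of each member is uncertain.

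Hepatocyte transcripts were also found in other cells of the same mice. The 11 genes summed to 6285 and 4566 CPM in the control mice, 1979, 1995 and 332 in the HFD+F+CCl4 mice and 1329, 334 and 485 across the WD+F+CCl4 mice in neutrophils, and to 4994 and 6382 CPM in the control mice, 1587, 1936 and 474 in the HFD+F+CCl4 mice and 1135, 757 and 1302 across the WD+F+CCl4 mice in all other kept cells. Both control mice were the highest in either set of cells, the second of which includes hepatocytes. In monocytes the sums were 4221 and 3686 CPM in the control mice and 106 to 773 CPM in the NASH mice. At least 1 such UMI was held by 96.3% and 100% of control neutrophils, Alb being the most abundant. The part of hepatocyte RNA from outside the neutrophils in the fall was not tested.

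Some lymphocyte genes fell too. Il2rb, the β chain of the interleukin 2 receptor of T and NK cells, had 188 and 368 CPM in the control mice and 4.48, 4.54 and 4.75 across the WD+F+CCl4 mice (log2 fold change -5.12 ± 0.47, adjusted p 0.000314 by edgeR). Trbc2, a constant segment of the T cell receptor, had 163 and 516 CPM in the control mice and 5.98, 6.05 and 7.13 across the WD+F+CCl4 mice (log2 fold change -4.72 ± 0.67, adjusted p 0.00317 by edgeR). Igha, the constant region of IgA, had 124 and 663 CPM in the control mice and 3.98, 9.08 and 9.51 across the WD+F+CCl4 mice (log2 fold change -4.58 ± 0.72, adjusted p 0.00699 by edgeR). Of the 8 tested T and NK cell genes, Trbc2 and Cd3g fell, and of the 4 tested B and plasma cell genes 0 did. Of all genes tested 0.728% fell. Il2rb and Igha are on neither list. The 9 listed T and NK cell genes summed to 971 and 3461 CPM in the control mice, 72.3, 146 and 46.3 in the HFD+F+CCl4 mice and 163, 63.5 and 283 across the WD+F+CCl4 mice in neutrophils and to 4755 and 4276 CPM in the control mice, 358, 1518 and 1912 in the HFD+F+CCl4 mice and 694, 801 and 1721 across the WD+F+CCl4 mice in all other kept cells, Ccl5 being the most abundant, and Cd3e was at 0 by the rule. Controls were the highest in both, and the part of lymphocyte RNA in these falls was not tested. Without the neutrophils with a UMI of the 10 genes of other cells given above, control replicate 1 was the one control with 10 cells, and 18 genes were called, 16 of them among the 59. Mup3 and Alb still passed (edgeR adjusted p 0.00179 and 0.0235), while Il2rb and Igha had log2 fold changes of -5.30 and -3.60 and did not pass (edgeR adjusted p 0.277 and 0.269). Dcn, decorin of stellate cells, also fell (log2 fold change -5.22 ± 1.08, adjusted p 0.0368 by edgeR), but control replicate 2 was at 0 CPM, the groups overlapped and the log2 fold change was 2.89 without control replicate 1.

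**Figure D5:**
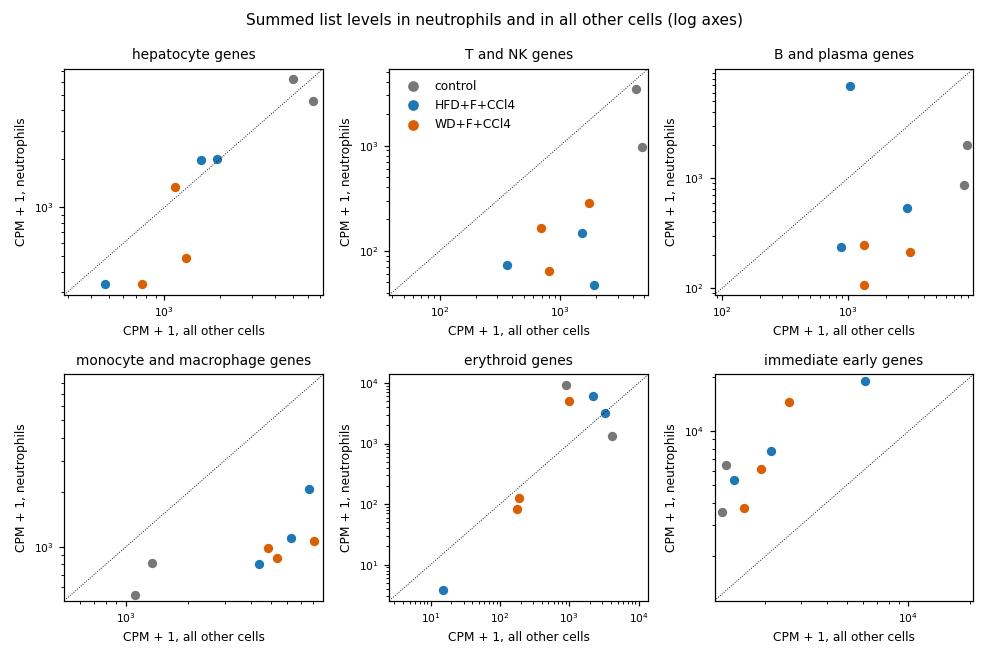
Summed CPM plus 1 of lists of marker genes in neutrophils (vertical) against all other kept cells (horizontal), log axes, 1 point per mouse and a dotted line at equal levels, for hepatocyte, T and NK, B and plasma, monocyte and macrophage, erythroid and immediate early genes. Hepatocyte sums were 6285 and 4566 CPM in control neutrophils and 332 to 1995 in NASH neutrophils.

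Neutrophils of HFD+F+CCl4 mice differed from control in 9 genes (0.142% of 6320), all lower (edgeR's quasi-likelihood test), with 736 genes at an unadjusted p under 0.05 and 85 called by DESeq2, 48 of them higher. Among those that the rule for named genes took, Il2rb had 188 and 368 CPM in the control mice and 13.9, 11.2 and 4.63 in the HFD+F+CCl4 mice (log2 fold change -4.26 ± 0.45, adjusted p 0.00197 by edgeR). Trbc2 had 163 and 516 CPM in the control mice and 8.34, 14.9 and 0 in the HFD+F+CCl4 mice (log2 fold change -4.66 ± 0.69, adjusted p 0.0121 by edgeR). Mup3 had 712 and 295 CPM in the control mice and 50.04, 44.8 and 10.8 in the HFD+F+CCl4 mice (log2 fold change -3.91 ± 0.54, adjusted p 0.0110 by edgeR). Ms4a4b, a membrane protein of T cells, had 152 and 368 CPM in the control mice and 8.34, 22.4 and 3.08 in the HFD+F+CCl4 mice (log2 fold change -3.82 ± 0.57, adjusted p 0.0121 by edgeR). Of the listed genes, Cd3g and Serpina1a fell as well, and 0 of the genes on the neutrophil lists passed. The other 3 called were Mug1, a plasma protein of hepatocytes, and the predicted Gm28438 and Gm26870, named after their values were seen. All 9 calls were lost without control replicate 1, 2 were left without the neutrophils that held UMIs of the 10 genes of other cells, where Il2rb did not pass (edgeR adjusted p 0.437), and the 2 comparisons with control share the same control mice.

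In neutrophils of the WD+F+CCl4 against the HFD+F+CCl4 model 0 genes passed (0% of 6320, edgeR), with 214 at an unadjusted p under 0.05 and 3 called by DESeq2. Without WD+F+CCl4 replicate 3, 52 genes were called, 11 higher and 41 lower. For Lcn2 the log2 difference was 0.63 ± 0.58 (edgeR adjusted p 1.00), for Ifit1 1.63 ± 0.37 (edgeR adjusted p 0.646) and for Il1b -0.53 ± 0.45 (edgeR adjusted p 1.00).

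Cxcl2, a recruitment signal for neutrophils, differed widely between mice of the same NASH group. It had 103 and 0 CPM in the control mice, 1599, 244 and 2145 in the HFD+F+CCl4 mice and 291, 195 and 2127 across the WD+F+CCl4 mice. It was high in HFD+F+CCl4 replicates 1 and 3 and in WD+F+CCl4 replicate 3, and low in the other NASH mice, so both NASH groups held high and low mice. At 800 UMIs per cell, Cxcl2 was found in 3.09% and 0% of neutrophils in the control mice, 47.3%, 6.86% and 47.3% in the HFD+F+CCl4 mice and 10.9%, 12.3% and 53.0% across the WD+F+CCl4 mice, against 0.0653 to 3.43% in T and B cells. Cxcl2 in unthinned cells ranged over the mice from 0 to 60.8% of neutrophils and from 0.152 to 5.98% of T and B cells. Il1b had 1854 and 1841 CPM in the control mice, 2577, 1049 and 2304 in the HFD+F+CCl4 mice and 1144, 924 and 1690 across the WD+F+CCl4 mice, with all WD+F+CCl4 mice below both controls in CPM and the HFD+F+CCl4 mice on either side of them (edgeR adjusted p 0.753 in HFD+F+CCl4 and 1.00 in WD+F+CCl4). With the TMM factor of control replicate 2, 1.90, the WD+F+CCl4 mice are not below both controls on the scale of the test. Of the 11 tested cytokine and chemokine genes, 0 passed in either comparison with control. The median log2 fold change was 1.22 in HFD+F+CCl4 and 0.47 in WD+F+CCl4.

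The mice high in Cxcl2, HFD+F+CCl4 replicates 1 and 3 and WD+F+CCl4 replicate 3, were also those with the highest sums of immediate early genes. These are the first genes transcribed after a stimulus, tissue dissociation included. These 15 genes, Junb the most abundant, summed to 6437 and 3535 CPM in the control mice, 19066, 5315 and 7768 in the HFD+F+CCl4 mice and 6133, 3734 and 14511 across the WD+F+CCl4 mice in neutrophils. In all other kept cells they summed to 1284 and 1230.2 CPM in the control mice, 6119.7, 1415 and 2139 in the HFD+F+CCl4 mice and 1909, 1572 and 2628 across the WD+F+CCl4 mice, also highest in HFD+F+CCl4 replicates 1 and 3 and WD+F+CCl4 replicate 3. The 12 targets of NF-κB, led by Nfkbia, summed to 1329 and 1399 CPM in the control mice, 3453, 1125 and 3261 in the HFD+F+CCl4 mice and 967, 989 and 1811 across the WD+F+CCl4 mice. There HFD+F+CCl4 replicates 1 and 3 stood out. None of the tested genes of either list passed in any comparison, and the part of handling in these sums was not tested.

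On the list of interferon-stimulated genes, which does not hold Ifit1bl2, 1 passed the test, Ifit1 in WD+F+CCl4. Over all genes tested 0.206% were called higher in WD+F+CCl4 against control. The 20 listed genes summed to 3701 and 1767 CPM in the control mice, 6667, 5552 and 6286 in the HFD+F+CCl4 mice and 9638, 8484 and 6672 across the WD+F+CCl4 mice, with all 6 NASH mice above both controls. Of the 18 tested, 15 had a log2 fold change above 0 in each comparison with control, as had 57.9% of all genes tested in HFD+F+CCl4 and 58.5% in WD+F+CCl4, the median being 0.83 in HFD+F+CCl4 and 1.65 in WD+F+CCl4. Ifitm1, which restricts entry of viruses, was the most abundant, with 691 and 147 CPM in the control mice, 2210.2, 2267 and 2293 in the HFD+F+CCl4 mice and 1814, 3241 and 2099 across the WD+F+CCl4 mice (edgeR adjusted p 0.192 in HFD+F+CCl4 and 0.0938 in WD+F+CCl4). At 800 UMIs per cell it was found in 30.9% and 18.2% of neutrophils in the control mice, 59.8%, 62.8% and 62.1% in the HFD+F+CCl4 mice and 52.9%, 62.9% and 59.3% across the WD+F+CCl4 mice, and so in a smaller share in both control mice than in any NASH mouse, against 0.566 to 4.55% in T and B cells. Ifitm1 in unthinned cells ranged over the mice from 18.2 to 72.9% of neutrophils and from 1.33 to 5.94% of T and B cells. In all other kept cells the sum was 1515 and 2069 CPM in the control mice, 2308, 2725 and 2748 in the HFD+F+CCl4 mice and 6418, 4298 and 3028 across the WD+F+CCl4 mice, where the control mice were also the lowest. In monocytes the order was another, with 7399 and 6037 CPM in the control mice, 4222, 5008 and 4836 in the HFD+F+CCl4 mice and 8092, 6018 and 5105 across the WD+F+CCl4 mice, both controls being above the 3 HFD+F+CCl4 mice.

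Of the 8 listed chemoattractant receptors, among which the rule gene Cxcr2 is not, none passed the test. Fpr2, a formyl peptide receptor, had 174 and 73.6 CPM in the control mice, 417, 328 and 537 in the HFD+F+CCl4 mice and 396, 514 and 347 across the WD+F+CCl4 mice (edgeR adjusted p 0.237 in HFD+F+CCl4 and 0.151 in WD+F+CCl4). C5ar1, the receptor of complement C5a, had 436 and 295 CPM in the control mice, 487, 446 and 534 in the HFD+F+CCl4 mice and 509, 392 and 378 across the WD+F+CCl4 mice (edgeR adjusted p 0.637 in HFD+F+CCl4 and 0.645 in WD+F+CCl4). Neither NASH group overlapped with control for Fpr2, nor did HFD+F+CCl4 for C5ar1, as in the 17.2% and 14.8% of genes higher without overlap given above, and the NASH groups overlapped with each other for both. Cxcr4 had 564 and 368 CPM in the control mice, 398, 248 and 229.7 in the HFD+F+CCl4 mice and 358, 168 and 162 across the WD+F+CCl4 mice (edgeR adjusted p 0.722 in HFD+F+CCl4 and 0.576 in WD+F+CCl4). In CPM both controls lay above 5 of the 6 NASH mice, HFD+F+CCl4 replicate 1 excepted. Control replicate 2 had a TMM factor of 1.90, and on the scale of the test this order does not hold. The median over the 8 was 1.18 in HFD+F+CCl4 and 0.91 in WD+F+CCl4.

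Among pattern and Fc receptors, which sense microbes and antibodies, none passed the test either. Clec4e, the lectin Mincle that senses dead cells and mycobacteria, had 227 and 73.6 CPM in the control mice, 889.6, 388 and 1010 in the HFD+F+CCl4 mice and 349, 523 and 791 across the WD+F+CCl4 mice (edgeR adjusted p 0.215 in HFD+F+CCl4 and 0.213 in WD+F+CCl4). Cd14, the co-receptor of lipopolysaccharide, had 31.9 and 0 CPM in the control mice, 139, 76.5 and 328 in the HFD+F+CCl4 mice and 85.2, 188 and 140.2 across the WD+F+CCl4 mice (edgeR adjusted p 0.259 in HFD+F+CCl4 and 0.263 in WD+F+CCl4). NASH mice lay above both controls for each, as for 17.2% of the genes tested in HFD+F+CCl4 and 14.8% in WD+F+CCl4. Of 13 genes on the list 0 passed, with a median of 0.86 in HFD+F+CCl4 and 1.00 in WD+F+CCl4.

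The oxidase and its partners were present throughout. The 7 listed subunits summed to 3931 and 3535 CPM in the control mice, 4648, 4761 and 5449 in the HFD+F+CCl4 mice and 4841, 4824 and 4661 across the WD+F+CCl4 mice. Ncf1, the organizing subunit p47phox, had 432 and 442 CPM in the control mice, 798, 836 and 984 in the HFD+F+CCl4 mice and 797, 859 and 815 across the WD+F+CCl4 mice (edgeR adjusted p 0.259 in HFD+F+CCl4 and 0.178 in WD+F+CCl4). Its NASH mice were above both controls, as for 17.2% of the genes tested in HFD+F+CCl4 and 14.8% in WD+F+CCl4. None of the 7 passed.

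Among transcription factors, Cebpb had 248 and 295 CPM in the control mice, 1179, 851 and 1439 in the HFD+F+CCl4 mice and 791, 659 and 1129 across the WD+F+CCl4 mice (edgeR adjusted p 0.0735 in HFD+F+CCl4 and 0.0664 in WD+F+CCl4) and Spi1, which encodes PU.1, 461 and 442 CPM in the control mice, 1081, 759.5 and 857 in the HFD+F+CCl4 mice and 863, 862 and 875 across the WD+F+CCl4 mice (edgeR adjusted p 0.260 in HFD+F+CCl4 and 0.173 in WD+F+CCl4). In both genes each NASH mouse was above both controls, as for 17.2% of the genes tested in HFD+F+CCl4 and 14.8% in WD+F+CCl4. Irf1, an interferon-regulated factor, had 408 and 589 CPM in the control mice, 345, 144 and 245 in the HFD+F+CCl4 mice and 154, 139 and 195 across the WD+F+CCl4 mice (edgeR adjusted p 0.654 in HFD+F+CCl4 and 0.316 in WD+F+CCl4), with both controls above all NASH mice in CPM. Lower without overlap were 16.7% of the genes tested in HFD+F+CCl4 and 21% in WD+F+CCl4. With the TMM factor of control replicate 2, 1.90, this order of Irf1 does not hold on the scale of the test. Of the 11 tested 0 passed, and the median was 0.55 in HFD+F+CCl4 and 0.63 in WD+F+CCl4.

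For lipid handling, Plin2 in WD+F+CCl4 was the only one of 11 tested genes that passed, and the median was 1.70 in HFD+F+CCl4 and 2.19 in WD+F+CCl4. Over all genes tested 0.206% were called higher in WD+F+CCl4 against control. The 14 listed genes summed to 599 and 736 CPM in the control mice, 1593, 1359 and 959 in the HFD+F+CCl4 mice and 1191, 1148 and 1925 across the WD+F+CCl4 mice in neutrophils and to 486 and 793 CPM in the control mice, 3345, 3197 and 1669 in the HFD+F+CCl4 mice and 2868, 2258 and 3789 across the WD+F+CCl4 mice in all other kept cells, Lpl being the most abundant there, with both controls the lowest in either. The part of RNA of other cells in these values was not tested. Fabp5, a fatty acid binding protein, had 63.8 and 0 CPM in the control mice, 309, 239 and 180.4 in the HFD+F+CCl4 mice and 139, 228 and 328 across the WD+F+CCl4 mice (edgeR adjusted p 0.175 in HFD+F+CCl4 and 0.0933 in WD+F+CCl4). Abca1, a cholesterol exporter, had 14.2 and 73.6 CPM in the control mice, 91.7, 70.9 and 27.8 in the HFD+F+CCl4 mice and 110.1, 101 and 143 across the WD+F+CCl4 mice (edgeR adjusted p 0.301 in HFD+F+CCl4 and 0.0511 in WD+F+CCl4). The control value of Abca1 in replicate 2 is 1 UMI. Lists of hypoxia and glycolysis, heat shock, survival and apoptosis, ageing and adhesion, nitric oxide and extracellular traps, cell cycle, MHC and the respiratory chain had 0 genes passed in each of the 3 comparisons. Their medians in WD+F+CCl4 against control were 0.87, -0.58, 0.78, 0.74, 0.60, -0.22, 0.27 and -0.02 on the log2 scale.

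Transcripts of further cell types were also found in the neutrophils. The 12 monocyte and macrophage genes summed to 539 and 810.1 CPM in the control mice, 2074, 1122 and 805 in the HFD+F+CCl4 mice and 984, 869.7 and 1079 across the WD+F+CCl4 mice. At 800 UMIs per cell C1qa, C1qb or C1qc were found in 2.47% and 0% of neutrophils in the control mice, 64.3%, 36.8% and 23.1% in the HFD+F+CCl4 mice and 8.16%, 10.3% and 34.7% across the WD+F+CCl4 mice, with 0.697 to 44.6% in T and B cells. C1qa, C1qb or C1qc in unthinned cells ranged over the mice from 4.29 to 83.5% of neutrophils and from 1.68 to 88.5% of T and B cells. HFD+F+CCl4 replicate 1 had the highest C1q share in neutrophils and in T and B cells alike. The 7 B and plasma cell genes reached 6878 CPM in HFD+F+CCl4 replicate 1, where 1 barcode held 91.7% of the Igkc UMIs and 98.1% of those of Ighg2c, and 106 to 1988 CPM in the other mice. Hemoglobin Hbb-bs was uneven as well, and 1 barcode gave 95.03% of its UMIs in control replicate 1 and another 98.4% for WD+F+CCl4 replicate 3. HFD+F+CCl4 replicate 1 had 0 UMIs of it. The 7 endothelial genes summed to 887 CPM in WD+F+CCl4 replicate 3, where 5 barcodes held 72.4%, and to 15.9 to 295 CPM elsewhere.

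Markers of other granulocytes were almost absent. Of 9 genes of eosinophils, basophils and mast cells only Siglecf and Ccr3 were detected in neutrophils, and Prg2, Epx, Il5ra, Cpa3, Mcpt8, Ms4a2 and Fcer1a were at 0 UMIs in each mouse. Siglecf, a lectin of eosinophils that some tissue neutrophils also carry, had 10.6 and 73.6 CPM in the control mice, 27.8, 85.8 and 13.9 in the HFD+F+CCl4 mice and 66.7, 16.6 and 59.4 across the WD+F+CCl4 mice (edgeR adjusted p 0.591 in HFD+F+CCl4 and 0.437 in WD+F+CCl4). At 800 UMIs per cell it was found in 0.617% and 9.09% of neutrophils in the control mice, 2.07%, 7.22% and 1.44% in the HFD+F+CCl4 mice and 5.82%, 1.66% and 6.36% across the WD+F+CCl4 mice, and in 0 to 0.129% of T and B cells. Siglecf in unthinned cells ranged over the mice from 1.84 to 12.9% of neutrophils and from 0 to 0.427% of T and B cells. The share in control replicate 2 is 1 of 11 cells.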

How the data were processed

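Single liver cells of 8 mice were captured in droplets and their mRNA was sequenced from the 3′ end (10x Genomics). The deposited UMI counts covered 55450 genes by 88581 barcodes in 1 matrix, made with Cell Ranger on GRCm38 after bcl2fastq 2.20 per the labels and methods. The matrix header names another Cell Ranger version than the methods. The annotation release and any removal of doublets or free RNA were not given in the sources used here. No doublet caller was run. The suffix of each barcode gave the mouse, and 0 columns belonged to other samples.

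Neutrophils and gene lists (31 lists, 315 symbols, 1 not found) were chosen with earlier results of these data known. Shares were compared by exact permutation tests over mice. Per-mouse sums of neutrophil UMI counts were tested in edgeR 4.0.16 (quasi-likelihood, TMM, filterByExpr with a minimum of 10, limma 3.58.1, R 4.3.3) in 1 fit of 3 groups, with Benjamini-Hochberg adjustment over the genes tested. Mice needed 10 neutrophils, and all 8 had them. Rule and mitochondrial genes were given no test. Named genes were the 10 largest rises and falls per comparison with an adjusted p under 0.05, a mean log2 CPM of at least 5 and groups that did not overlap, predicted genes apart, plus members of the lists. CPM are scaled to the neutrophil UMIs of a mouse, are not divided by length because each molecule is counted at its 3′ end, and carry no TMM factor. For shares of cells with a transcript, neutrophils and T and B cells were each thinned to 800 UMIs, leaving out 13 neutrophils in all and 0 to 30 T and B cells per mouse. Comparison T and B cells held at least 2 UMIs of Cd3e or Cd79a. Intervals and limits for counts of 0 cover counting error only. All 55450 gene IDs were found in GENCODE M21 (GRCm38), which gave positions. Promoter sequences are from RefSeq.

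On simulated data, edgeR recovered 26% of 200 genes given a log2 change of 2 with 7 false calls for HFD+F+CCl4 against control (5727 genes), 34.5% with 7 in WD+F+CCl4 against control (5764 genes) and 74% with 20 between the NASH models (5674 genes). DESeq2 1.42.0 recovered 20.5%, 20% and 64% with 0, 1 and 7 false calls. In 50 of 50 simulated cases the exact tests matched SciPy 1.17.1. Python 3.11.15, numpy 2.4.6, pandas 2.3.3 and matplotlib 3.10.9 were used. Alternatives were DESeq2, other scaling, filters, cell and marker limits, a replicate block and removal of each mouse. Comparisons restricted to neutrophils of 1000 genes or fewer and those without granule-transcript-high cells were added after the data were seen. Values of some listed genes are not reported here.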

Additional observations from a re-analysis of the deposited data

Results flagged for a closer look

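In groups of 6 NASH mice, 11 of 57 values had 1 mouse far from the others, by a test that chance meets in about 1 of 20 groups. WD+F+CCl4 replicate 1 had the highest share of neutrophils, 8.22% against 3.08% in the next mouse, and the highest sum of primary granule genes in neutrophils, 294 CPM against 101, where 1 barcode held 490 of the 590 UMIs (83.05%). The NADPH oxidase sum was highest in HFD+F+CCl4 replicate 3, at 5449 CPM against 4841. HFD+F+CCl4 replicate 1 stood out in the sums of monocyte and macrophage genes (2074 CPM against 1122), of B and plasma cell genes (6878 against 536) and of stellate cell genes (189 against 46.7) in neutrophils. Endothelial genes were highest in WD+F+CCl4 replicate 3, at 887 CPM against 245.

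Among named genes, WD+F+CCl4 replicate 2 was highest for Steap4 (378 CPM against 200) and Wfdc17 (3199 against 2046). Fgg reached 55.6 CPM in HFD+F+CCl4 replicate 1 against 20.5 in the next NASH mouse, and Igha 69.0 CPM in HFD+F+CCl4 replicate 2 against 22.2. The reasons for these values were not tested.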

How the results depend on the processing

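The direction of each share comparison held under all alternatives run, and 75 of 76 alternative values kept their side of the threshold on the unadjusted p. The exception was NASH against control without WD+F+CCl4 replicate 1, 1.64 points, which passed by the unadjusted exact permutation p alone (0.0476, the smallest that 7 mice allow, adjusted p 0.19). Leaving out 1 mouse gave 1.64 to 3.21 points for NASH minus control, 0.999 to 2.25 for HFD+F+CCl4 minus control, 1.66 to 4.76 for WD+F+CCl4 minus control and 0.04 to 3.14 for WD+F+CCl4 minus HFD+F+CCl4.

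Counts of genes called in HFD+F+CCl4 against control, WD+F+CCl4 against control and WD+F+CCl4 against HFD+F+CCl4 were 85, 143 and 3 with DESeq2 and 224, 309 and 59 with genes of at least 1 count. In HFD+F+CCl4 against control they were 4 with a filter minimum of 20, 111 with only the 2 groups and 17 over 200 genes per cell. Some settings left control replicate 1 as the one control with enough cells, where the lone mouse was assumed to vary like the other groups, although such comparisons had been planned as values with no test. Of these, WD+F+CCl4 against control gave 23 calls with at least 20 cells per mouse, 19 with 40 or more S100a8 and S100a9 UMIs and 29 with 5 or more receptor UMIs. HFD+F+CCl4 and WD+F+CCl4 against control gave 3 and 1 calls over 1000 genes per cell and 2 and 18 without mixed barcodes, as defined above. The replicate block gave 20 calls in HFD+F+CCl4 against control, 73 in WD+F+CCl4 against control and 4 between the models, but mice of equal number did not deviate together (r from -0.142 to 0.0356), so the numbers were not taken to pair them. Leaving out 1 mouse gave 0 to 19, 0 to 188 and 0 to 52 calls. The 0 in both comparisons with control came without control replicate 1. Without HFD+F+CCl4 replicate 1 there were 19 calls in HFD+F+CCl4 against control and 1 between the models, as without HFD+F+CCl4 replicate 3. WD+F+CCl4 against control gave 23 calls without control replicate 2 and 35 without WD+F+CCl4 replicate 2. Removal of WD+F+CCl4 replicate 3 raised it to 188, and to 52 between the models. The causes were not tested. Of 690 alternative values of named genes 475 kept direction and call, 214 kept direction alone and 1 reversed: Dcn, a stellate cell gene, whose log2 fold change in WD+F+CCl4 against control ran from -5.71 to 2.89 when 1 mouse was left out, being above 0 without control replicate 1.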
